A study of Mus musculus with 6 samples.

Results

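Expression of 6 genes that mark the specialization of outer hair cells (OHCs) was followed in the cochlear sensory epithelium of Kir2.1-OE and control mice: Slc26a5, Ocm, Ikzf2, Strc, Lbh and Sri. They were taken by symbol and not by a cut on their values, but with earlier results of these data known. All 6 of 6 were found among the 24411 genes listed in each library. Kir2.1-OE mice (the study's name for Kir2.1 overexpression) carry 1 copy of an Otof-rtTA allele and 1 copy of a tetO-Kir2.1-IRES-tau-lacZ transgene, so that doxycycline (DOX) turns on Kir2.1, an inwardly rectifying K+ channel, where the otoferlin promoter is active, in hair cells and mostly in inner hair cells (IHCs). Control mice, labelled WT, were littermates with the same single Otof-rtTA allele and no Kir2.1 transgene. Both groups were on the C57BL/6N background and were dissected at postnatal day 9 (P9), before hearing begins. Both were exposed to DOX through their mothers, which had 0.5 mg/ml in the drinking water from conception on. A group had 3 libraries, and every library pooled 8 cochleae taken from 4 animals, so that n counts pools. Poly(A) RNA was sequenced, and each value is the number of reads that Salmon estimated for a gene.

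OHCs amplify sound by changing their length with their membrane voltage, whereas IHCs pass the signal to the auditory nerve. Slc26a5 encodes prestin, the membrane motor protein behind this movement. Ocm encodes oncomodulin, a Ca2+-binding protein of the parvalbumin family that OHCs accumulate, and Sri encodes sorcin, a Ca2+-sensing protein with penta-EF-hand motifs. Ikzf2 encodes Helios, a zinc-finger transcription factor that drives OHC maturation. Strc encodes stereocilin, which forms the top connectors between OHC stereocilia and the attachment crowns to the tectorial membrane. Lbh encodes a small transcriptional cofactor that OHCs need to persist in the adult.

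The libraries held between 35430940 and 41205047 assigned reads. Kcnj2, the gene of Kir2.1, had between 2213 and 3813 normalized counts in the Kir2.1-OE pools and between 226.0 and 235.8 in the control pools, so that every library followed its label. A normalized count is a count scaled to the same effective library size by edgeR's TMM method. The OHC genes were well covered, with raw counts from 576 (Ikzf2 in control replicate 3) to 25303 (Ocm in the same library). Counting error alone is 4.17% at 576 reads, more than the spread of Ikzf2 between control pools (a coefficient of variation of 2.53%) and less than the spread of the OHC genes elsewhere (5.70% to 20.0%). The 3 libraries of a group differed by more than sampling noise, with a chi-square per degree of freedom between 16.2 and 32.3. The pools hold the whole dissected epithelium, so that a different number of OHCs and a different amount of RNA in each OHC cannot be told apart.

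Per kilobase of the longest annotated transcript (GENCODE vM21, mm10), Ocm was by far the most abundant of the 6 genes. In controls it reached a level of 887 ± 137 TMM-scaled CPM per kilobase (SD, n = 3 pools), above 99.7% of the genes tested. Lbh followed with 89.8 ± 5.35, then Sri with 69.1 ± 4.05 and Slc26a5 with 34.0 ± 6.80. Strc had 10.9 ± 1.05 and Ikzf2, the transcription factor, 1.73 ± 0.0439, a level above 25.8% of the genes tested. No 2 neighbours in this order overlapped between their control pools. In Kir2.1-OE mice the order was the same except for Slc26a5 (52.2 ± 7.62) and Sri (52.1 ± 4.08), whose levels overlapped.

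Slc26a5 (ENSMUSG00000029015.9) lies on the minus strand of chromosome 5 of mm10, from 21810655 to 21865604. In replicate order, the Kir2.1-OE pools held 6214, 6378 and 4834 normalized counts and the control pools 4270, 2909 and 4160. The Kir2.1-OE pools all lay above the control pools, although Kir2.1-OE replicate 3 was the lowest of its group and control replicate 2 stood below the other control pools. The means were 5809 ± 848 and 3780 ± 756 (SD, n = 3), a 1.54-fold difference. The log2 fold change was 0.62 (standard error 0.153, 95% confidence interval 0.28 to 0.96), with an adjusted p of 0.00818 (edgeR's quasi-likelihood test, adjusted by Benjamini-Hochberg over all genes tested). Slc26a5 was thus called higher by the study's rule of an adjusted p under 0.05 and a fold change above 1.5, that is, a log2 fold change beyond 0.585. It went under the fold threshold when control replicate 2 (0.46), Kir2.1-OE replicate 2 (0.52) or Kir2.1-OE replicate 1 (0.56) was left out, and with upper quartile scaling (0.53), while the adjusted p stayed under 0.05 in all 18 alternatives.

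Ikzf2 (ENSMUSG00000025997.13) lies on the minus strand of chromosome 1, from 69531214 to 69687245. In replicate order, it had 1001, 875.4 and 872.7 normalized counts in the Kir2.1-OE pools and 615.0, 609.7 and 586.3 in the control pools. The control pools were nearly equal and all lay well below the Kir2.1-OE pools. The log2 fold change was 0.60 (standard error 0.089, 95% confidence interval 0.40 to 0.80), a 1.52-fold difference (edgeR's quasi-likelihood test, adjusted p = 6.55e-04). Ikzf2 was called higher, again close to the fold threshold. Its log2 fold change was below that threshold with upper quartile scaling (0.51) and on leaving out Kir2.1-OE replicate 1 (0.52) or control replicate 3 (0.58). Antisense and intronic transcripts are annotated within the gene and are not among the genes listed. No strand setting is given in the sources used here, and whether any of their reads were counted for Ikzf2 was not tested.

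**Figure D1:**
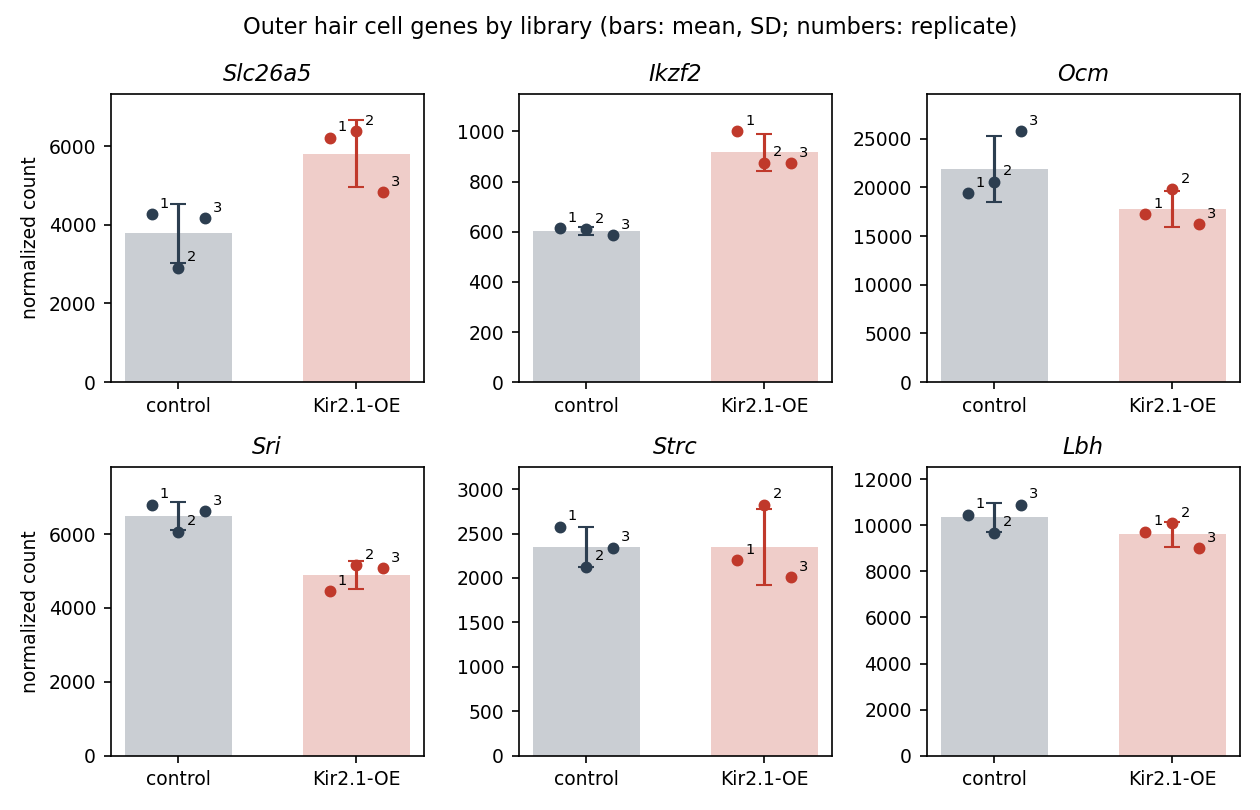
Normalized counts of the 6 OHC genes (y axes, from 0) in control and Kir2.1-OE mice; each point is 1 pool with its replicate number, bars are means and error bars SD (n = 3). The pools do not overlap for Slc26a5 (2909 to 4270 against 4834 to 6378), Ikzf2 and Sri, and overlap for Ocm, Strc and Lbh.

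Ocm (ENSMUSG00000029618.13), on the minus strand of chromosome 5 from 144019804 to 144026670, had 17220, 19840 and 16210 normalized counts in the Kir2.1-OE pools, in replicate order. The control pools held 19420, 20570 and 25760. The groups overlapped, since Kir2.1-OE replicate 2 exceeded control replicate 1, and control replicate 3 stood above the rest. The log2 fold change was -0.30 (standard error 0.119, 95% confidence interval -0.57 to -0.04) and missed the threshold (edgeR's quasi-likelihood test, adjusted p = 0.0576). Across the 18 alternatives the adjusted p ranged from 0.0191 to 0.31, and the fold change stayed under 1.5 in each. The value was -0.17 without control replicate 3 and -0.42 without Kir2.1-OE replicate 2.

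Sri (ENSMUSG00000003161.15), on the plus strand of chromosome 5 from 8046078 to 8069379, had 4456, 5150 and 5085 normalized counts in the Kir2.1-OE pools, in replicate order. The control pools held 6797, 6069 and 6626. All Kir2.1-OE pools lay below all control pools. The control level was 1.33-fold that of Kir2.1-OE mice, with a log2 fold change of -0.41 (standard error 0.0819, 95% confidence interval -0.59 to -0.22). The adjusted p of 0.00289 (edgeR's quasi-likelihood test) passed its threshold but the fold change did not, so that Sri was not called. The log2 fold change lay between -0.47 and -0.36 when each library was left out in turn. A processed pseudogene on the same strand and an antisense gene are annotated over Sri and are not among the genes listed. Whether any reads from them were counted for Sri was not tested.

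Strc (ENSMUSG00000033498.14), on the minus strand of chromosome 2 from 121363728 to 121387168, had 2201, 2825 and 2008 normalized counts in the Kir2.1-OE pools, in replicate order. The control pools held 2579, 2128 and 2340. The 2 groups overlapped fully, and Kir2.1-OE replicate 2 was the highest and Kir2.1-OE replicate 3 the lowest of the 6 libraries. The log2 fold change was -0.0024 (standard error 0.125, 95% confidence interval -0.28 to 0.28; edgeR's quasi-likelihood test, adjusted p = 0.988). Its sign turned when single libraries were left out, with values from -0.18 (without Kir2.1-OE replicate 2) to 0.085 (without Kir2.1-OE replicate 3). The gene overlaps Ckmt1 on the opposite strand, but the annotated exons of the pair share only 10 of 6229 exonic bases of Strc.

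Lbh (ENSMUSG00000024063.13), on the plus strand of chromosome 17 from 72918305 to 72941947, had 9732, 10100 and 9026 normalized counts in the Kir2.1-OE pools, in replicate order. The control pools held 10470, 9681 and 10900. It varied little within a group, with coefficients of variation of 5.70% and 5.95%, and the groups overlapped. The log2 fold change was -0.10 (standard error 0.0777, 95% confidence interval -0.28 to 0.07; edgeR's quasi-likelihood test, adjusted p = 0.285). In this model the intervals of both Lbh and Strc leave out a difference of 1.5-fold in either direction.

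Of the 6 OHC genes, 2 were thus called higher and 0 lower. Over the 15303 genes that passed edgeR's filter on low counts, 15.5% were called higher and 5.08% lower by the same rule (20.5% in all), and 2 of 6 genes are read here as no result about OHC genes as a group. With the adjusted p alone, Slc26a5 and Ikzf2 passed with higher and Sri with lower counts, beside 27.3% and 23.5% of all genes. All Kir2.1-OE pools lay above all control pools for 2 of the 6 genes and below them for 1, against 31.7% and 29.9% of all genes tested. Their median was -0.05 on the log2 scale, beside 0.0096 over all genes. In these 3 against 3 pools a single gene cannot go below p = 0.10 in an exact two-sided permutation test, and Slc26a5, Ikzf2 and Sri each reached that value (0.10).

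**Figure D2:**
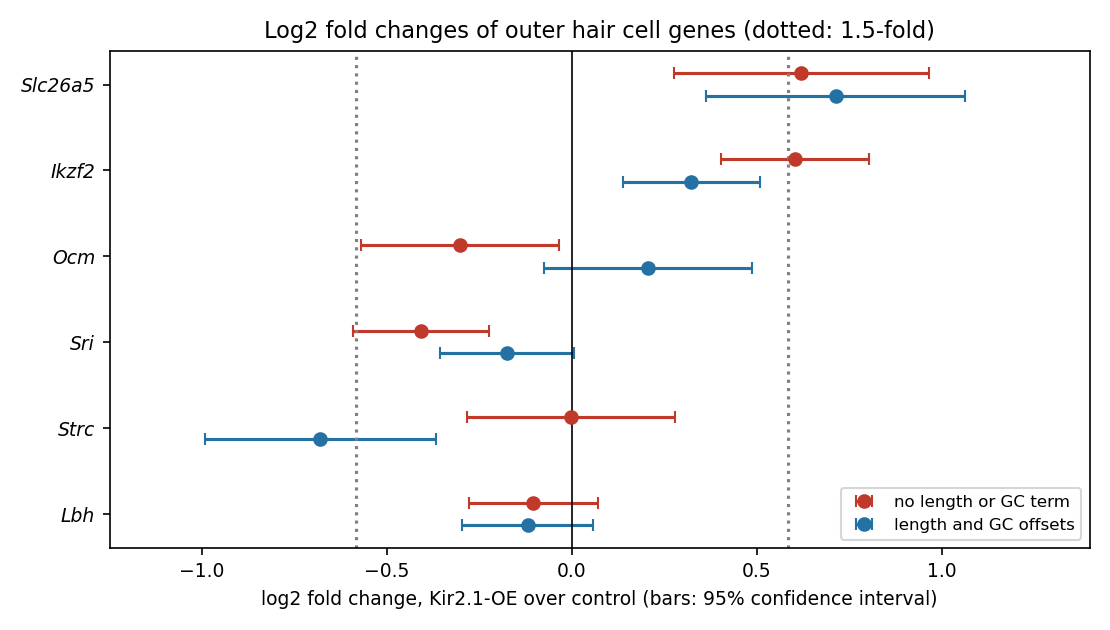
Log2 fold change of the 6 OHC genes (Kir2.1-OE over control), with 95% confidence intervals, in the model without and with offsets for transcript length and GC content; dotted lines mark 1.5-fold. Slc26a5 is near 0.62 and 0.71 in the 2 models, whereas Ikzf2 moves from 0.60 to 0.32 and Strc from about 0 to -0.68.

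Transcript length moved with these values. Across the genes tested, the median log2 fold change was -0.50 for transcripts shorter than 1000 nt, -0.13 from 2000 to 3000 nt, 0.01 from 3000 to 4000 nt, 0.22 from 4000 to 6000 nt and 0.81 from 8000 nt upwards. The longest annotated transcript has 658 nt for Ocm, 2504 nt for Sri, 2962 nt for Slc26a5, 3069 nt for Lbh, 5756 nt for Strc and 9278 nt for Ikzf2. Slc26a5, with a log2 fold change of 0.62, lay above the upper quartile of its length class (0.15), in which 4.74% of 3209 genes were called higher. Ikzf2 (0.60) lay between the quartiles of its class (0.41 and 1.16), in which 64.0% of 886 genes were called higher. Sri (-0.41) lay below the lower quartile of its class (-0.34), which it shares with Slc26a5. Ocm (-0.30) lay between the median and the upper quartile (-0.29) of its class, and Strc (-0.0024) between the lower quartile (-0.07) and the median of its own.

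A second model took this trend out before testing, by gene-wise offsets from a smooth fit of each library on transcript length and GC content. In it the log2 fold change of Slc26a5 was 0.71 (standard error 0.157; edgeR's quasi-likelihood test, adjusted p = 0.0083) and was still called higher. Ikzf2 went to 0.32 (standard error 0.0831, adjusted p = 0.0157 from the same edgeR test), under the fold threshold. Strc was called lower, at -0.68 (standard error 0.14, adjusted p = 0.00624 from the same edgeR test). Ocm turned to 0.20 (adjusted p = 0.234 in edgeR), and Sri had -0.18 (adjusted p = 0.119 in edgeR). Lbh had -0.12, close to its value without offsets. In this model 6.44% of all genes were called higher and 3.40% lower, and with the adjusted p alone 14.4% and 19.9%. The longest transcript may not be the one expressed in the cochlea, and which of the 2 models is closer to the tissue was not tested.

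**Figure D3:**
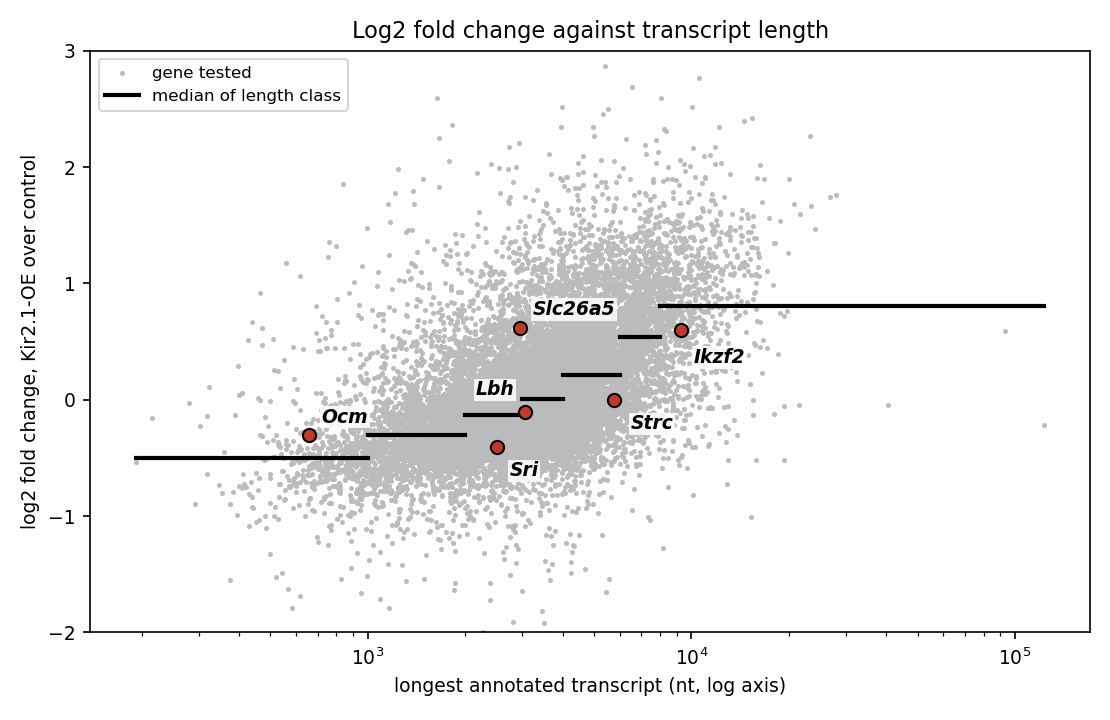
Log2 fold change (y axis) against the longest annotated transcript (x axis, log scale) of the 15198 genes tested that have an annotated length; 15 genes lie outside the plotted range. Black bars are medians of length classes, from -0.50 below 1000 nt to 0.81 from 8000 nt, and the red points are the 6 OHC genes, of which Slc26a5 lies furthest above its class.

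The balance between 2 genes within a library does not depend on the scaling between libraries, although it carries any difference in their lengths. The log2 ratio of Slc26a5 to Ocm reads was -1.62 ± 0.138 in the Kir2.1-OE pools and -2.55 ± 0.327 in the control pools (SD, n = 3 pools), a shift of 0.93. The log2 ratio of Slc26a5 to Sri shifted by 1.04, from -0.80 ± 0.225 in controls to 0.24 ± 0.283, and these 2 genes are of like length. The ratio of Slc26a5 to Strc shifted by 0.64. Ikzf2 shifted relative to Ocm by 0.90, with the log2 ratio of Ocm to Ikzf2 at 4.27 ± 0.205 against 5.17 ± 0.252. The log2 ratio of Slc26a5 to Ikzf2 was 2.66 ± 0.199 against 2.63 ± 0.322, a difference below the spread between pools (exact permutation test, two-sided, p = 0.80). The 15 pairs reuse the same 6 genes, and no share for pairs of other genes was computed. The other shifts given here each had an exact permutation p = 0.10 (two-sided), the smallest that 3 against 3 pools allow, and p = 0.15 after Benjamini-Hochberg adjustment over the 15 pairs, so that no pair passed the adjustment.

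**Figure D4:**
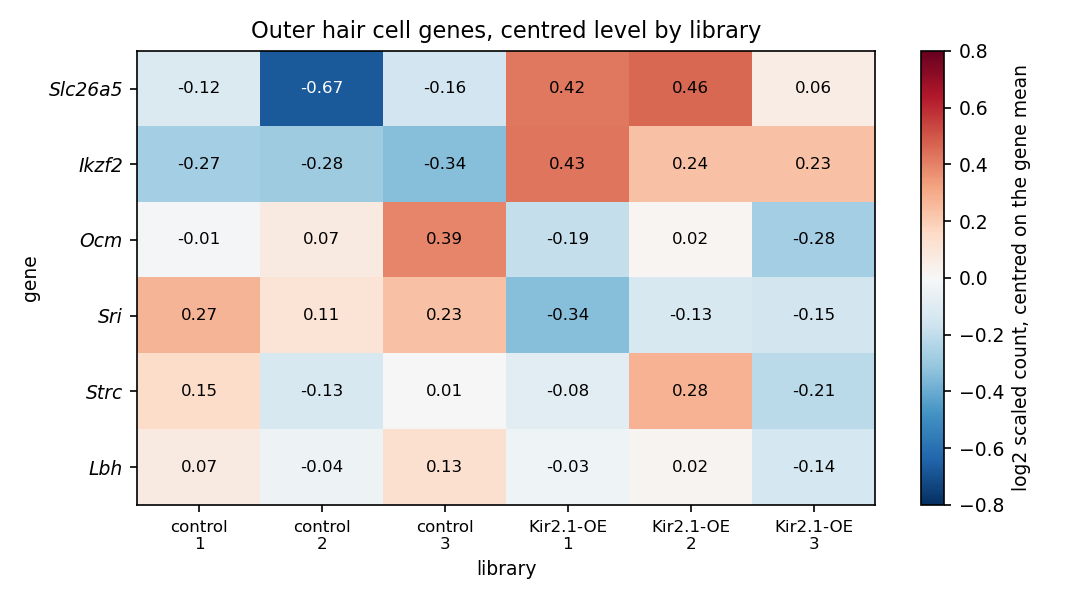
Log2 scaled counts of the 6 OHC genes (rows) in the 6 libraries (columns), each centred on the mean of its gene; red is above and blue below that mean. Slc26a5 runs from -0.67 in control replicate 2 to 0.46 in Kir2.1-OE replicate 2, Ikzf2 from -0.34 to 0.43, and Sri in the opposite direction from 0.27 in control replicate 1 to -0.34 in Kir2.1-OE replicate 1.

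The likeness of 2 genes was measured over the 6 libraries as the root mean square difference of their centred log2 values, among 13639 other genes with a mean of at least 50 normalized counts. Most like Slc26a5 were Disc1 (0.078) and Klf5 (0.0993), and most like Ikzf2 were Ralgapa2 (0.0222) and Lrch3 (0.0238). Cspg5 (0.046) and Lgals1 (0.0489) were nearest to Ocm, and Ppp1cb (0.0136) and Mrpl28 (0.0153) to Sri. Fzd8 (0.0496) and Zfp551 (0.0595) were nearest to Strc, and Uck1 (0.0149) and Klc4 (0.0159) to Lbh. Among the OHC genes themselves the closest pairs were Strc with Lbh (0.131) and Ocm with Lbh (0.147), and the most distant was Slc26a5 with Sri (0.56). Slc26a5 had a larger distance to its nearest gene than the other 5 OHC genes had to theirs.

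A further 10 genes with known roles in OHCs were read as a second list, although not all are particular to OHCs. The paper describes the transient SK2 current, carried by the channel that Kcnn2 encodes, in developing IHCs. In these pools the cells behind a change cannot be told. All 10 passed the filter, and 2 were called higher and 1 lower, beside 15.5% and 5.08% of all genes tested. The median log2 fold change of the list was -0.18. Calb1, the gene of the Ca2+ buffer calbindin, fell. In replicate order, the Kir2.1-OE pools held 5548, 7022 and 6791 normalized counts and the control pools 13010, 9912 and 9488. Its log2 fold change was -0.74 (standard error 0.133; edgeR's quasi-likelihood test, adjusted p = 0.00165), and it was also called with the offsets (-0.62) and without any single library. Control replicate 1 was the highest pool, and without it the value was -0.59.

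Insm1 and Bcl11b, which encode transcription factors, were the 2 genes called higher, at low levels. Insm1, which consolidates OHC fate in the embryo, had 57.1 to 89.3 normalized counts against 25.4 to 43.8 in controls, and a log2 fold change of 1.01 (standard error 0.296; edgeR's quasi-likelihood test, adjusted p = 0.0181). The call was lost on leaving out Kir2.1-OE replicate 1 (0.77) or control replicate 2 (0.83). Bcl11b (0.69, adjusted p = 0.0448 in edgeR) was called only without control replicate 2 (1.04) among the fits that left out a library, and neither gene was called with the offsets. The other values without a library were 0.66 (either Kir2.1-OE replicate 1 or 2), 0.71 (Kir2.1-OE replicate 3), 0.51 (control replicate 1) and 0.58 (control replicate 3).

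The nicotinic receptor genes Chrna9 and Chrna10, whose products form the receptor for efferent input, had log2 fold changes of -0.37 (edgeR's quasi-likelihood test, adjusted p = 0.017) and -0.45 (adjusted p = 0.00606 in edgeR). Chrna10 had 859.0 to 1123 normalized counts in the Kir2.1-OE pools and 1300 to 1452 in the control pools. The water channel gene Aqp11 (-0.43) and Ppp1r17, which encodes a phosphatase inhibitor (-0.46), also had lower counts in all Kir2.1-OE pools. None of these 4 genes reached a 1.5-fold difference, but Aqp11 was called lower with the offsets, at -0.72. The K+ channel gene Kcnn2 had 0.38 and Strip2 had 0.01, and neither was called. In all, 5 of the 10 genes had every Kir2.1-OE pool below every control pool and 2 had every pool above, beside 29.9% and 31.7% of all genes tested.

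Genes related to the 6 OHC genes were examined by family. The counts called in each family stand beside 15.5% of all genes tested called higher and 5.08% lower. With the offsets these shares were 6.44% and 3.40%. Of the 10 other Slc26 transporter genes, 8 were tested, and only Slc26a1 was called higher (0.92, with 89.9 to 133.4 against 49.2 to 69.1 normalized counts). Slc26a4, the gene of the anion exchanger pendrin, had -0.37, and Slc26a3 and Slc26a8 were too low to test. Of the Ikaros family, Ikzf4 was called higher at 0.99 (adjusted p = 0.00115 in edgeR), with 214.7 to 279.2 normalized counts in the Kir2.1-OE pools and 110.4 to 139.0 in the control pools. Ikzf1 had 0.11 and Ikzf5 0.02, and Ikzf3 was too low to test. With the offsets Ikzf4 had 0.58 and was not called.

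Among 10 genes of EF-hand Ca2+-binding proteins, to which oncomodulin belongs, 2 were called higher and 1 lower, with a median log2 fold change of -0.14. Calb2 (calretinin) was called higher at 0.68 and Cabp1 at 1.30, and Calb1, which is also in the list of further OHC genes, was the one called lower. For Calb2, Kir2.1-OE replicate 3 had 23170 normalized counts against 14380 and 12650 in its group, and without it the log2 fold change was 0.36 and the call was lost. Pvalb, the parvalbumin gene expressed in hair cells and neurons, had -0.02, with 7027 normalized counts in Kir2.1-OE replicate 3 and 4132 to 5312 in the other libraries. S100a1 and Calm2 had lower counts in every Kir2.1-OE pool, at -0.46 and -0.38, and were not called. With the offsets S100a1 had -0.04 and Calm2 -0.01.

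For sorcin, the penta-EF-hand relatives Pdcd6 (-0.46), Pef1 (-0.35) and Gca (-0.26) had lower counts in every Kir2.1-OE pool, and none was called. Capns1, of the same family, had -0.15 with overlapping groups, and Capns2 was too low to test. With the offsets Pdcd6 had -0.17, Pef1 -0.22, Gca -0.07 and Capns1 0.0036, and none was called. Of genes for proteins that sorcin binds or acts on, the Ca2+ release channel gene Ryr2 was called higher at 1.90 and the Ca2+ channel gene Cacna1c at 1.37, with 23.4 to 128.0 and 52.9 to 209.5 normalized counts over the 6 libraries. Atp2a2, the gene of the endoplasmic reticulum Ca2+ pump, had 0.52 and was not called. Of the 9 genes tested in this list, 2 were called higher and 0 lower. In 4 of them every Kir2.1-OE pool lay below every control pool and in 4 above, beside 29.9% and 31.7% of all genes tested. With the offsets 1 remained called, Ryr2 at 1.08.

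Among relatives of stereocilin and genes of the tectorial membrane, 3 of 6 tested genes were called higher and 1 lower. Ceacam16, which encodes a tectorial membrane protein, was called higher at 2.60, from 20.1 to 79.4 normalized counts in controls to between 158.7 and 370.5 in Kir2.1-OE mice. Otoa (otoancorin, a stereocilin relative) was called higher at 0.89 and Otog (otogelin) at 0.81, and Tectb was called lower at -0.69. Without control replicate 1, Tectb had -0.50 and was not called. With the offsets Otog had -0.21 and was not called, whereas Tecta, which was not called before (edgeR's quasi-likelihood test, adjusted p = 0.0606), was called lower. Tecta had 25990 normalized counts in control replicate 1 and 6197 to 12000 in the other libraries. Of 7 targets of the Wnt pathway, to which Lbh belongs as well, Axin2 (0.70) and Znrf3 (0.62) were called higher and 0 genes lower, and no member was called with the offsets. Znrf3 went under the fold threshold without control replicate 1 (0.58), control replicate 3 (0.53) or Kir2.1-OE replicate 2 (0.56).

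**Figure D5:**
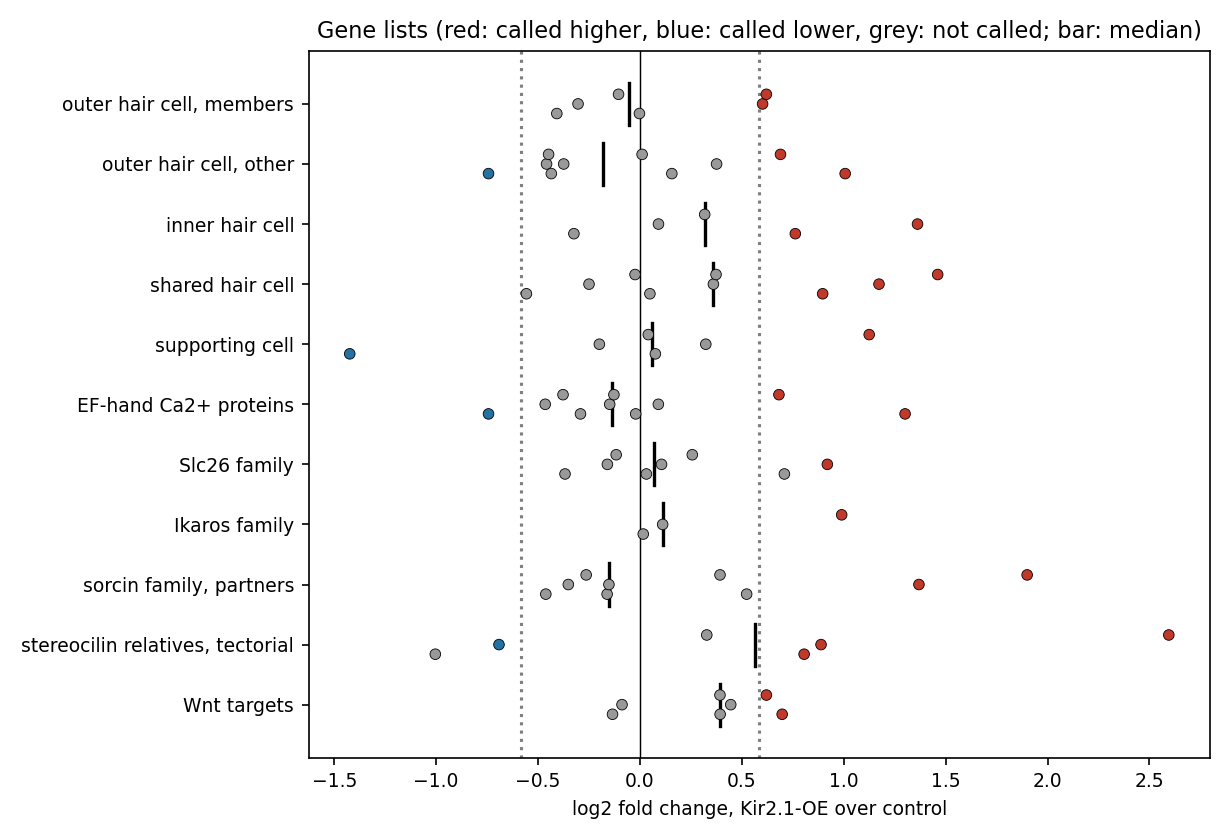
Log2 fold changes (x axis) of the tested genes of the hair cell, supporting cell and family lists (rows), red where called higher, blue where called lower and grey otherwise; black bars are list medians and dotted lines mark 1.5-fold. The OHC genes and the further OHC genes have medians of -0.05 and -0.18, and the inner and shared hair cell genes 0.32 and 0.36; with the offsets, which are not plotted, these medians are 0.04, -0.22, -0.09 and -0.09.

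Markers of other cells in the dissected tissue were read as well. Their sums lay apart between the groups, except for the supporting cell markers. Over all genes tested, 15.5% were called higher and 5.08% lower, or 6.44% and 3.40% with the offsets. The summed normalized counts of 5 IHC markers were 9547 to 11190 in the Kir2.1-OE pools and 7112 to 7909 in the control pools. Otof (0.76) and Slc7a14 (1.36) were called higher and 3 were not called. Those 3 were Tbx2 (0.32), Slc17a8 (0.09, with overlapping groups) and Fgf8, which went the other way (-0.32) with lower counts in every Kir2.1-OE pool. With the offsets Otof had -0.09 (edgeR's quasi-likelihood test, adjusted p = 0.518) and lost its call, and 1 of the 5, Slc7a14, was called. For 9 markers shared by both kinds of hair cell the sums were 23180 to 27640 against 20020 to 20870, with Myo7a, Cdh23 and Myo15 called higher. Those 3 have transcripts of 7506, 11096 and 11769 nt, and with the offsets 0 of the 9 were called. Myo6, not called at 0.36, alone held 15420 to 17760 against 12460 to 13400 of the sums. Without Myo6 the sums of the shared markers overlapped between the groups. Lhfpl5 (-0.56) passed the fold threshold downwards on leaving out control replicate 2 (-0.62), Kir2.1-OE replicate 1 (-0.60) or Kir2.1-OE replicate 2 (-0.60). The sums of the 6 OHC genes overlapped, at 38030 to 45170 against 41970 to 50370, and those of the further OHC genes were 16820 to 18990 against 21680 to 27340. Calb1 alone held 5548 to 7022 against 9488 to 13010 of the latter, and without it the sums of the further OHC genes overlapped.

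Supporting cell markers summed to 62440 to 69830 against 58010 to 71030, with 1 of 6 called higher and Hes5 lower, a call lost on leaving out any of 4 libraries (control replicate 1 or 2, Kir2.1-OE replicate 1 or 2; -0.85 without control replicate 1). Neuronal markers summed to 19430 to 49930 against 8632 to 14490, with 5 of 7 called higher, and Kir2.1-OE replicate 3 had the highest sum. Of these, Snap25 lost its call without Kir2.1-OE replicate 3 (0.56) or control replicate 3 (0.98). Glial markers summed to 350900 to 461500 against 255700 to 325800 (1 of 5 higher), bone and mesenchyme markers to 268500 to 310500 against 135800 to 252900 (1 of 5 higher), and erythroid markers to 7829 to 9757 against 12380 to 34040 (3 of 3 lower). With the offsets 5 of the neuronal markers, 2 of the glial markers, 1 of the supporting cell markers and 0 of the bone and mesenchyme markers were called higher, and 1 of the erythroid markers was called lower. The median of the bone and mesenchyme markers went from 0.59 to 0.0019 and that of the erythroid markers from -1.18 to -0.79. Without Kir2.1-OE replicate 1 or 3, 0 of the glial markers were called, and the bone marker Col1a1 was not called (0.79 and 0.49). Col1a1 had 0.46 without control replicate 1 and was not called. Without control replicate 2 or Kir2.1-OE replicate 2, Mbp was called as well (0.64 and 0.63), and without control replicate 3, 4 of the 5 bone and mesenchyme markers were called higher. Without control replicate 1, 1 of the 3 erythroid markers was called. No defining marker of these lists was at 0 in any library. The part of such differences in tissue make-up in the values of the OHC genes was not tested.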

How the data were processed

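Libraries of poly(A) RNA from pooled cochlear sensory epithelium were mapped by the authors to mm10 with the nf-core RNA pipeline, and the authors deposited Salmon's expected counts (estimated reads per gene, not scaled and not divided by length); tool versions, annotation and strand setting are not given in the sources used here. Of these estimates 6.95% were not whole. After rounding, 1 model of the 6 libraries was fitted in R 4.3.3 (edgeR 4.0.16: TMM, filterByExpr, Benjamini-Hochberg adjusted quasi-likelihood test); the study used DESeq2, which is an alternative here. A gene was called at an adjusted p under 0.05 and a fold change above 1.5. With these thresholds the paper reports fewer genes in either direction than were called here. Standard errors are the log2 fold change divided by the root of the F statistic.

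Groups and replicate numbers came from the labels. The file of control replicate 1 is headed with the number 4, and the label was followed. Longest transcripts and GC content came from GENCODE vM21, in which 23376 symbols matched directly, 670 through an older symbol and 365 not at all. Length and GC offsets used a loess trend (span 0.4, degree 2).

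The OHC genes, the related lists and the marker lists were chosen with earlier results of these data known. The genes named are the OHC genes, Kcnj2, the list genes and the 2 genes most like each OHC gene. Alternatives were other scalings (DESeq2 1.42.0 size factors, library size, upper quartile), other filters, DESeq2's Wald test, limma-voom (limma 3.58.1), unrounded counts, no fold threshold, a replicate block, the offsets, and each library left out; a local linear trend was added after seeing the data. The script was tested on simulated data. No protein sequences were used here. Some genes of the lists are counted but not reported by name here.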

Additional observations from a re-analysis of the deposited data

How the results depend on the processing

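Among the OHC genes, Lbh and Sri kept their direction in all alternatives, and Slc26a5 and Ikzf2 stayed positive in 18 of 18. With upper quartile scaling 0 of the OHC genes were called (Slc26a5 0.53, Ikzf2 0.51), and 1378 genes were called lower in place of 778, so that 57.9% of calls were higher in place of 75.2%. Without a filter on low counts Strc had 0.00056, a change of sign around zero. In the model with offsets for length and GC content, 985 genes were called higher in place of 2365, Ocm turned to 0.20, Ikzf2 lost its call at 0.32, and Strc gained one at -0.68. With a local linear trend the values were 904 genes, 0.22 for Ocm, 0.18 for Ikzf2 and -0.69 for Strc. Without a fold threshold 4184 genes were called higher and 3590 lower, Sri was called at -0.41, and 8 of the further OHC genes were called in place of 3.

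The replicate numbers did not pair the samples, since the correlations of same-numbered deviations were -0.106, -0.232 and -0.213. With a replicate block 2220 genes were called higher and 718 lower, 2 of the OHC genes and 2 of the further OHC genes (Bcl11b lost its call). With the block and the offsets together the counts were 800 and 442, and Ocm had 0.21, Ikzf2 0.32 and Strc -0.69.

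On leaving out single libraries, Slc26a5 ranged from 0.46 to 0.72 (log2 fold change), Ikzf2 from 0.52 to 0.62 and Strc from -0.18 to 0.085. Between 0 (without Kir2.1-OE replicate 1) and 2 of the OHC genes were called, with 1 without Kir2.1-OE replicate 2, control replicate 2 or control replicate 3, and between 1 (without Kir2.1-OE replicate 1) and 2 of the further OHC genes. The OHC genes had at least 576 reads in every library.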
